A study of Mus musculus with 7 samples.

Results

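The genes described here code for proteins of the splicing machinery and for heterogeneous nuclear ribonucleoproteins (hnRNPs), measured in blood stem and progenitor cells of mice with and without the kinase gene Lkb1 (Stk11). Single genes were taken by name, and these names were chosen with earlier results of these data known. A gene was a member when its symbol in the platform annotation began with Snrp, Sf3a, Sf3b, Srsf, Prpf or Hnrnp, or with Lsm and a digit. This gave 64 genes, measured by 148 probe sets, among 12393 genes with a probe set of their own. Each gene was read from its brightest probe set, by mean deposited signal over the 7 arrays. Another 15 probe sets pair such a symbol with the symbol of another gene and were left out. The members were 18 Hnrnp, 10 Lsm, 10 Prpf, 9 Srsf, 8 Snrp, 6 Sf3b and 3 Sf3a genes.

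RNA came from LSK cells, the bone marrow fraction without lineage markers and with Sca-1 and c-Kit. The Lkb1 KO group (4 samples, numbers 4 to 7) came from Lkb1 L/L, rosa26CreERT2 mice, which carry floxed Lkb1 alleles and a tamoxifen-activated Cre at the Rosa26 locus. The Lkb1 WT group (3 samples, numbers 5 to 7) came from Lkb1 L/L mice, which carry the same floxed alleles and no Cre. The strain was C57BL/Ka-CD45.2:Thy-1.1 in both groups. All mice received tamoxifen for 5 days, as adults, and cells were sorted 1 day later. Cre was in the KO mice alone, so its presence and the loss of Lkb1 cannot be told apart, and it was not limited to blood cells. Whether each sample was its own animal is not stated, and the p-values given below therefore speak of sample spread only, part of which may be technical.

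Splicing removes introns from a transcript in a particle built from small nuclear RNAs and their proteins. A ring of Sm proteins, encoded by Snrp genes, surrounds the U1, U2, U4 and U5 RNAs, and a ring of Lsm proteins binds U6. The SF3a and SF3b complexes hold the U2 particle at the branch point, and many Prpf proteins join or activate the U4/U6.U5 particle. SR proteins (Srsf genes) bind exons and promote their use, while hnRNPs coat the transcript and often compete with them. SRSF2 and SF3B1 are often mutated in myelodysplasia, a disorder of blood stem cells.

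Levels are given as log2(signal + 16) after quantile normalization of the 7 arrays, and a gene was tested when its mean level passed the 40th percentile of all probe sets. Of the 64 genes, 61 were tested, and 5 of these rose in KO and none fell (limma, Benjamini-Hochberg adjusted p under 0.05 over 8077 genes). They were Snrpd3, Srsf2, Prpf3, Snrpa1 and Hnrnpu. Over all tested genes the share called higher was 2.48% and the share called lower was 2.88%, and the share called in either direction was 5.36%, against 8.2% of the members higher and 0 lower. At an unadjusted p under 0.05, 12 members were higher and 2 lower, against 11.8% and 13.6% of all tested genes. The median difference of the members was 0.11 log2 units (KO minus WT), against -0.02 over all tested genes. The difference lay above 0 for 46 of 61 members (75.4%) and for 47.7% of all tested genes. KO and WT arrays did not overlap, with KO above, for 14 members (23.0%; 11.4% of all tested genes), and with KO below for 3 (4.92%; 12.7% of all tested genes). The median member lay at percentile 91.3 of level over all probe sets, so the members were brighter than most tested genes. Level was not matched in these shares. With the filter at the 60th percentile, 13.8% of the members and 6.1% of all tested genes were called higher. All these shares are descriptions of a list chosen with earlier results of these data known, and no test over the list was made.

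The count of 5 rested on the full set of arrays. It was 1 without Lkb1 KO 4 or without Lkb1 WT 7, with Snrpd3 alone past the threshold, and 0 without Lkb1 KO 5, KO 6, KO 7, WT 5 or WT 6. The number of genes called higher over the whole array was 9 to 77 in these fits, against 200 with all arrays. The sign was more stable than the call, since 49 of the 61 members kept theirs in all 7 fits, 37 above 0 and 12 below. The ratio of Actb signal at the 3' end to that at the 5' end, a measure of RNA length, ran from 11.41 to 12.29 in KO and 12.6 to 13.11 in WT. Every KO array lay below every WT array in this ratio, so a model holding both can hardly tell the ratio from genotype. With this ratio in the model limma called 0 members, and also 0 of all 8077 tested genes in either direction. Of the members, 5 had an unadjusted p under 0.05 as higher and 1 as lower. Of all tested genes, 715 had such a p in either direction. The differences were then 0.70 for Snrpd3, 0.55 for Snrpa1, 0.50 for Srsf2, 0.35 for Hnrnpu and 0.27 for Prpf3, the last being 0.51 without the ratio.

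**Figure D1:**
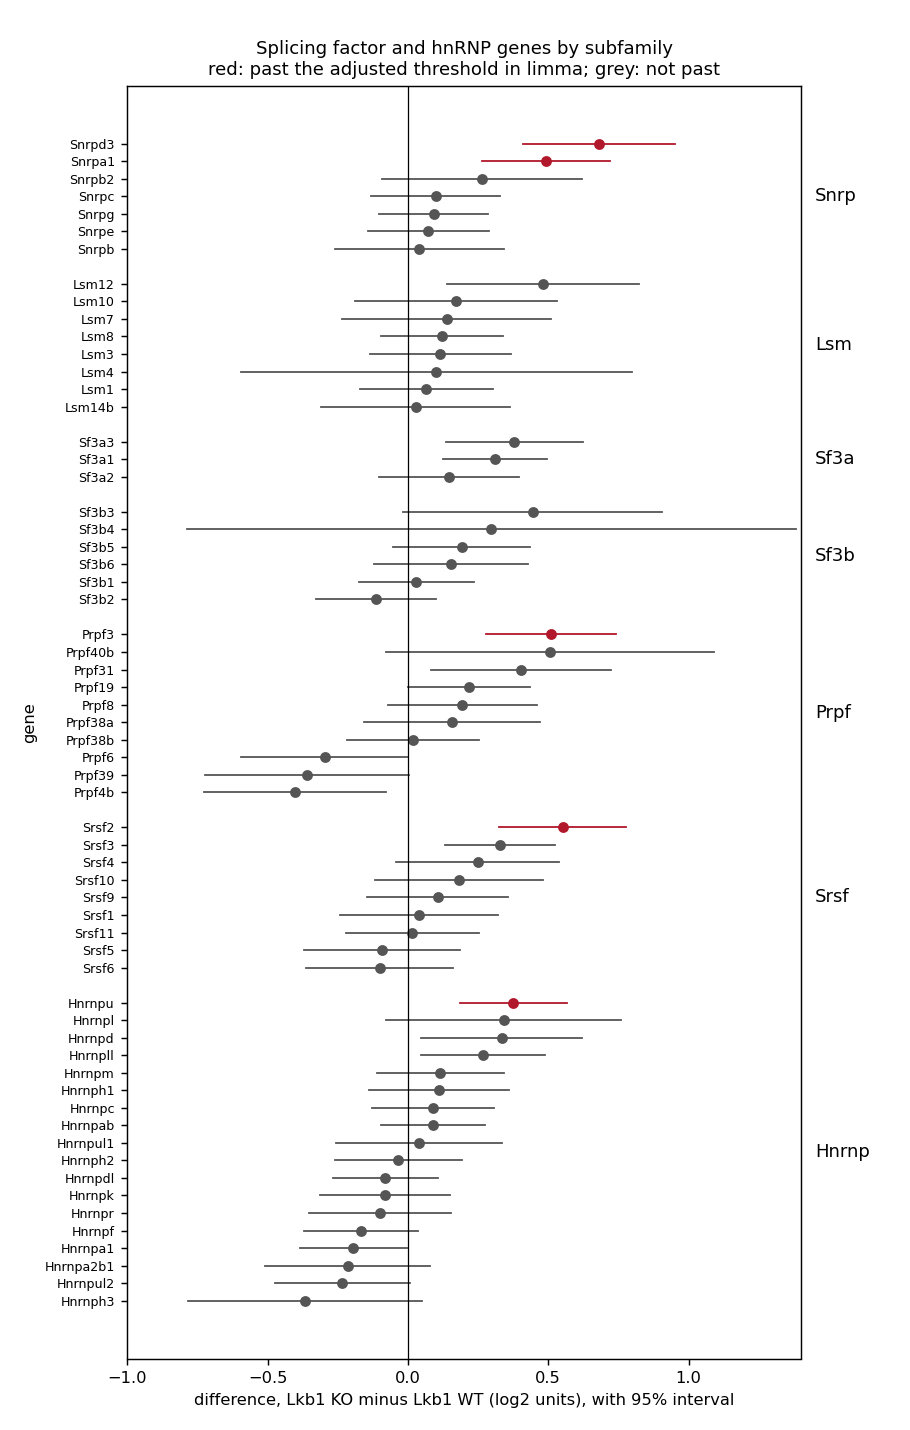
Difference in level between Lkb1 KO and Lkb1 WT (log2 units, x axis) for each of the 61 tested genes (y axis), grouped by subfamily, with the 95% interval from limma as a line. The 5 red points passed the threshold, and most points of the Snrp, Lsm and Sf3a groups lie to the right of 0 while those of the Hnrnp group lie on both sides.

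The arrays themselves differed between the groups, and so did marker genes of other cells. The trimmed mean of the deposited signals ran from 360.4 to 425.9 in KO and 228.6 to 340.5 in WT, and quantile normalization removed this difference in brightness. In the scaling as deposited the median tested gene was 0.34 higher in KO, and the median member 0.51 higher. Of the proliferation markers, 6 of 8 tested rose and none fell, and their summed normalized signal ran from 24300 to 26400 in KO and 18800 to 20000 in WT. Of 12 granulocyte and monocyte lineage genes, not all of them limited to mature cells, 8 fell. Csf1r (0.75), Elane (0.41) and Itgam (0.40) lay above WT on all KO arrays without passing (limma adjusted p = 0.0829, 0.121 and 0.0658). The summed signal of the 12 ran from 16400 to 22400 in KO and 35900 to 48700 in WT. Of 6 tested erythroid markers, Hba-a2 rose and Ermap fell. In 5 of these 6 the difference lay below 0, with every KO array below every WT array. The summed signal of the erythroid markers ran from 3490 to 4540 in KO and 4820 to 6450 in WT. Of 6 megakaryocyte markers, Plek fell and none rose. The difference lay below 0 in 5 of these 6, and in 4 every KO array lay below every WT array. The summed signal of the megakaryocyte markers ran from 2910 to 4510 in KO and 5370 to 5700 in WT. Of the LSK markers, all 7 with a probe set of their own were above background on all arrays. All 7 had a difference below 0, and in 5 every KO array lay below every WT array. The summed signal of these 7 ran from 11200 to 12000 in KO and 14300 to 15500 in WT. Hlf and Kit fell (limma), Kit, which encodes c-Kit, with a mean of 10.85 ± 0.16 (SD) over the 3 WT arrays against 10.43 ± 0.04 (SD) over the 4 KO arrays, and the gene of Sca-1 (Ly6a) had no such probe set. Of 5 B cell genes, Cd79a and Pax5 were not above background on any array, Cd79b and Ms4a1 were above it on all 7, and the summed signal ran from 365 to 414 in KO and 374 to 465 in WT. Of 5 T and NK cell genes, Cd3e and Cd3g were not above background on any array, while Nkg7 rose by 0.57 (limma adjusted p = 0.0237). Nkg7 alone of these was tested, with a mean log2 level of 11.56 in KO and 10.98 in WT. The others averaged at most 5.24 in either group. The summed signal, from 2740 to 3260 in KO and 1970 to 2150 in WT, therefore mostly follows Nkg7. Fewer cells of a type and less RNA per cell cannot be told apart in such samples, and the part of these shifts in the results below was not tested. The deposited signal of Stk11 was 162.5, 123.4, 91.2 and 74.1 on KO arrays 4 to 7 and 187.3, 115.2 and 99.3 on WT arrays 5 to 7. Its normalized log2 level averaged 6.84 ± 0.33 (SD) over the 4 KO arrays and 7.40 ± 0.24 (SD) over the 3 WT arrays, with overlapping groups (exact permutation p = 0.0857). A dimmer probe set, above background on 4 of 7 arrays, went the other way by 0.71 (exact permutation p = 0.143). It could not be settled whether the probes lie within the floxed exons, so Stk11 does not check the labels.

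Among the Snrp genes, Snrpd3 and Snrpa1 rose, and the 7 tested genes all had a difference above 0, with a median of 0.10. Snrpd3 encodes SmD3, a subunit of the Sm ring that all major spliceosomal particles except U6 carry. Its log2 level was 9.19, 9.38, 9.30 and 9.43 in Lkb1 KO 4 to 7 and 8.45, 8.64 and 8.85 in Lkb1 WT 5 to 7. Each KO array lay above each WT array. The difference of 0.68 ± 0.12 (SE, limma adjusted p = 0.0248) was a 1.6-fold rise, and it was the highest of the 61 members. A dimmer probe set of Snrpd3 did not share it, at -0.12 with overlapping groups, and the other one lay below the filter on dim probe sets.

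Snrpa1 encodes the A-prime protein of the U2 particle, which binds U2 RNA together with the product of Snrpb2. Its log2 level was 11.67, 11.53, 11.72 and 11.70 on KO arrays 4 to 7 and 11.31, 11.05 and 11.13 on WT arrays 5 to 7, again without overlap. The difference was 0.49 ± 0.10 (SE, limma adjusted p = 0.0323). It was the member whose probe sets gave the closest values among those that rose, since the other 2 gave 0.56 and 0.51, and the groups did not overlap in any of the 3. The partner gene Snrpb2 was at 0.26 (limma adjusted p = 0.327), with overlapping groups, and 0.33 in its second probe set. The U1 gene Snrpc was at 0.10, and the Sm genes Snrpg, Snrpe and Snrpb were at 0.09, 0.07 and 0.04. The 95% intervals of these 4 reached at most 0.34, which leaves out a rise of the size seen for Snrpd3. Snrpn had deposited signals of 1.0 to 8.9, not above background on any array, and was not tested.

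**Figure D2:**
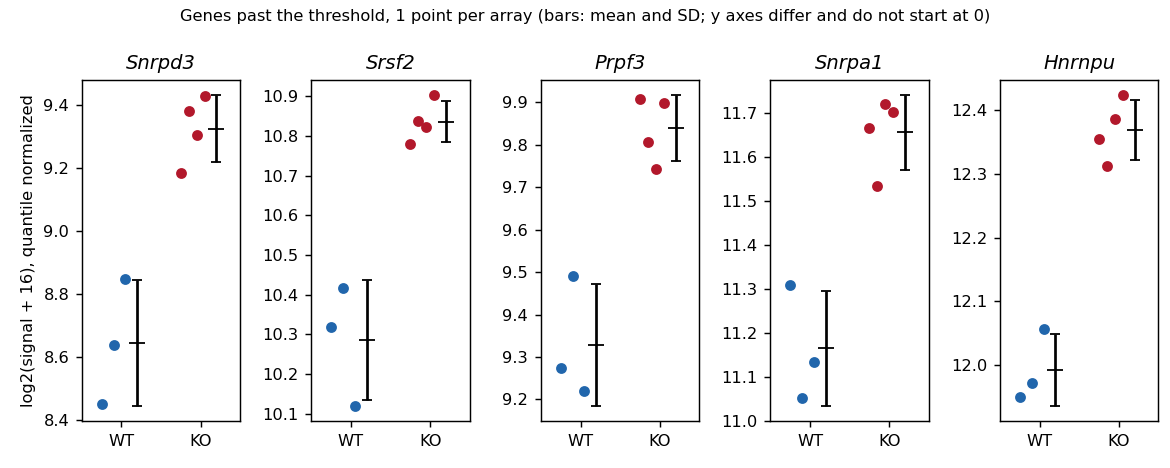
Log2 level of the 5 genes that passed the threshold, with 1 point per array (3 Lkb1 WT in blue, 4 Lkb1 KO in red) and the mean and SD beside each group. In each gene the lowest KO array lies above the highest WT array, for Snrpd3 at 9.19 against 8.85.

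Because promoters were the sequences at hand for these genes, the bases just before the annotated start are shown for 3 of those that rose, chosen as the 2 with the highest differences and the one whose probe sets gave like values. Each stretch holds 150 bases, 5' to 3' on the strand of the gene, from RefSeq on GRCm38.p6. Snrpd3 lies at chr10:75517892-75518041 (+ strand), Srsf2 at chr11:116853095-116853244 (- strand) and Snrpa1 at chr7:66060186-66060335 (+ strand). Capitals mark matches, on either strand, to the 5 motifs searched. These were the E-box (CACGTG), the ETS core with its flank (CCGGAAG), the CCAAT box, the TATA box (TATAAA) and the core of the cyclic AMP response element (TGACGT).
Snrpd3: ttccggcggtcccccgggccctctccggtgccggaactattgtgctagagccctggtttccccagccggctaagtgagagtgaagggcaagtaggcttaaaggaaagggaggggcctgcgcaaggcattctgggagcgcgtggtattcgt
Srsf2: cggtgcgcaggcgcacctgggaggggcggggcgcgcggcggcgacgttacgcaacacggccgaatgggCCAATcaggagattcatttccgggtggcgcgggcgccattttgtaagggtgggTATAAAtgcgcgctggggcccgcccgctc
Snrpa1: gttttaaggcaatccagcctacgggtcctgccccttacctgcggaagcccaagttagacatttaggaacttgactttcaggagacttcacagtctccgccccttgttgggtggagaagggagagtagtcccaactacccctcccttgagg

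Srsf2 held CCAAT and TATAAA in this stretch, while the 150 bases of Snrpd3 and Snrpa1 held none of the 5 motifs. The start used for Srsf2 is not the outer end of its annotated gene, while those of Snrpd3 and Snrpa1 are. Over windows of 300 bases, 250 before and 50 after the start, 56 of the 64 members had an entry. The ETS core occurred in 18 of them (32.1%), against 19.8% of the windows of tested genes and 9.12% of all 27025 genes with a window. The cyclic AMP element core occurred in 13 (23.2%), against 12.3% and 7.64%. CCAAT occurred in 28 (50%), against 38.4% and 37.9%. The E-box (10.7%, against 10.4% and 7.24%) and the TATA box (8.93%, against 6.83% and 14.2%) lay near the share of the tested genes. Of the 5 genes that rose, none held the ETS core, Prpf3 held the E-box, Snrpa1 the cyclic AMP element core, and Snrpd3 and Srsf2 the CCAAT box in these longer windows. The start of Snrpd3 lies 70 bases from that of Gucd1 on the other strand, and Gucd1 was at 0.03 ± 0.13 (SE, limma adjusted p = 0.901) with overlapping groups. That of Srsf2 lies 668 bases from the start of Mfsd11 on the other strand, and Mfsd11 was not among the tested genes.

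Of the 10 Lsm genes, 8 were tested and none passed, though all 8 lay above 0 with a median of 0.12. Lsm12, which is not part of the ring, had the highest difference of these 8. Its log2 level was 7.00, 7.08, 7.24 and 6.95 on KO arrays 4 to 7 and 6.59, 6.28 and 6.89 on WT arrays 5 to 7, which did not overlap. The difference was 0.48 ± 0.15 (SE) and missed the threshold (limma adjusted p = 0.094). Lsm8, which keeps the ring in the nucleus on U6, was at 0.12, and Lsm1, which takes its place in the cytoplasmic ring of mRNA decay, was at 0.07. Lsm3 and Lsm7, shared by both rings, were at 0.11 and 0.14 (limma adjusted p = 0.549 and 0.636). Lsm10, a subunit of the U7 particle that processes histone transcripts, was at 0.17 (limma adjusted p = 0.535). Lsm4, another shared subunit, had the widest interval of the Lsm genes, from -0.60 to 0.80. It was 8.38 and 8.36 in WT 5 and 6 but 7.22 in WT 7, and without WT 7 its difference was -0.29. Lsm14b, a protein of cytoplasmic RNA granules, was at 0.03. Lsm2 and Lsm14a lay below the filter, Lsm14a with deposited signals of 0.4 to 1.3 and no array above background. Lsm2 had deposited signals of 12.3 to 47.8 and was above background on 6 of 7 arrays. Its log2 levels were 5.54 to 5.98 in KO and 5.02 to 5.35 in WT, which did not overlap, and the untested difference was 0.51.

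The SF3a complex has 3 subunits, and none passed the threshold, with differences of 0.38, 0.31 and 0.15 and a median of 0.31. Sf3a3 was at 10.06, 10.11, 10.07 and 10.16 on KO arrays 4 to 7 and 9.91, 9.53 and 9.72 on WT arrays 5 to 7 (0.38 ± 0.11 SE, limma adjusted p = 0.0735). Sf3a1 was at 9.01, 8.99, 9.07 and 8.96 in KO and 8.68, 8.68 and 8.73 in WT (0.31 ± 0.08 SE, limma adjusted p = 0.0616). Neither overlapped between the groups, and both passed when the filter was set at the 60th percentile. Sf3a2 did overlap (0.15, limma adjusted p = 0.433), and its second probe set was at -0.12. The second probe sets of Sf3a1 and Sf3a3 were at 0.11 and 0.19, both with overlapping groups.

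None of the 6 Sf3b genes passed, and 5 of 6 lay above 0. Sf3b3, a large scaffold subunit, was highest at 0.44 ± 0.20 (SE, limma adjusted p = 0.214), with 9.40 to 9.78 in KO and 8.86, 8.94 and 9.66 on WT arrays 5 to 7, so that WT 7 alone reached the KO range. Sf3b5 was at 0.19 (limma adjusted p = 0.303), with KO above WT on all arrays. Sf3b6, which contacts the branch point region, was at 0.15 (limma adjusted p = 0.459). Sf3b1, the subunit that holds the branch point and is often mutated in myelodysplasia, was at 0.03, with an interval from -0.17 to 0.24. Sf3b2 was at -0.11 (limma adjusted p = 0.48), though its dimmest probe set was at 0.60 without overlap. Sf3b4 was at 11.51 in KO 4 but at 9.36 to 9.81 in the other KO arrays and 9.60 to 9.89 in WT. Its difference of 0.30 became -0.11 without KO 4, and its second probe set was at -0.095. Phf5a, a further SF3b subunit outside the name rule, rose (0.50 ± 0.09 SE, limma adjusted p = 0.025).

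Among the 10 Prpf genes, Prpf3 rose, none fell, and the median was 0.17. Prpf3 encodes a U4/U6 protein of the tri-snRNP, the particle that brings U6 to the intron. Its log2 level was 9.91, 9.81, 9.74 and 9.90 on KO arrays 4 to 7 and 9.27, 9.49 and 9.22 on WT arrays 5 to 7. The groups stood apart, and the difference was 0.51 ± 0.10 (SE, limma adjusted p = 0.0311). Prpf3 had a single probe set, so no other reading of it was available. Prpf31, which joins U4/U6 to U5, was at 0.40 (limma adjusted p = 0.122) with KO above WT on all arrays, and at 0.62 in its second probe set. Prpf8, the large U5 protein at the catalytic centre, was at 0.19 (limma adjusted p = 0.337). Prpf19, a ubiquitin ligase of the activation step, was at 0.22 (limma adjusted p = 0.197) with KO above WT on all arrays. Its other probe sets were at 0.27 and 0.48.

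Prpf40b had a difference of 0.51, close to that of Prpf3, but its WT arrays ran from 5.28 to 6.43, across most of the KO range of 5.96 to 6.45 (limma adjusted p = 0.258). Prpf4b, Prpf39 and Prpf6 lay below 0. Prpf4b, a kinase that acts on tri-snRNP proteins, was at 11.11, 10.85, 11.04 and 10.89 on KO arrays 4 to 7 and 11.11, 11.67 and 11.34 on WT arrays 5 to 7. The lowest WT array lay only just above the highest KO array. The difference was -0.40 ± 0.14 (SE, limma adjusted p = 0.125), and of its 4 other probe sets above the filter 3 were between -0.24 and -0.015 and 1 was at 0.32. Prpf39, a U1-associated protein, was at -0.36 (limma adjusted p = 0.2) and at -0.89 without overlap in its second probe set. With that second probe set in place of the first, Prpf39 fell. Prpf6, a bridge between U5 and U4/U6, was at -0.30 (limma adjusted p = 0.198).

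Of the 9 Srsf genes, Srsf2 rose and none fell, with a median of 0.11. Srsf2 encodes SC35, an SR protein that binds exonic enhancers. Its log2 level was 10.78, 10.84, 10.82 and 10.90 on KO arrays 4 to 7 and 10.32, 10.42 and 10.12 on WT arrays 5 to 7. The KO arrays lay within 0.12 of each other and all above the WT arrays, and the difference was 0.55 ± 0.10 (SE, limma adjusted p = 0.025). Its 3 dimmer probe sets gave 0.03, 0.18 and 0.04, each with overlapping groups.

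Srsf3, the smallest SR protein, was at 12.33, 12.25, 12.25 and 12.15 on KO arrays 4 to 7 and 11.88, 11.91 and 11.96 on WT arrays 5 to 7. The groups did not overlap, but the difference of 0.33 ± 0.09 (SE) missed the threshold (limma adjusted p = 0.0619). Of its 5 other probe sets, 4 were between 0.11 and 0.34 and 1 was at -0.29. Srsf4 was at 0.25 (limma adjusted p = 0.264), and Srsf10, which acts as a repressor when dephosphorylated, at 0.18 (limma adjusted p = 0.422). A dim probe set of Srsf10 was at 0.85 without overlap. Srsf1, the founding SR protein, was at 0.04 in its brightest probe set and between 0.016 and 0.19 in the others above the filter. Srsf5 and Srsf6 were at -0.09 and -0.10 (limma adjusted p = 0.676 and 0.615).

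The Hnrnp genes lay evenly about 0, with 9 of 18 above, a median of 0.0023 and a range from -0.37 to 0.38. Hnrnpu, a scaffold attachment factor that binds chromatin and RNA, rose. Its log2 level was 12.35, 12.31, 12.39 and 12.42 on KO arrays 4 to 7 and 11.95, 11.97 and 12.06 on WT arrays 5 to 7 (0.38 ± 0.08 SE, limma adjusted p = 0.0408). The groups did not overlap. Its second probe set was at 0.33 with KO above WT on all arrays, but 2 dimmer ones were at -0.56 and -0.33, the former with KO below WT on all arrays, and the dimmest was at 0.28 with overlapping groups. Hnrnpll, a regulator of lymphocyte splicing, was at 0.27 and Hnrnpd, which binds AU-rich elements, at 0.33 (limma adjusted p = 0.134 and 0.144).

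Several hnRNPs had probe sets that differed in sign. Hnrnpa1, which represses exons, was lower on every KO array in its brightest probe set (-0.20, limma adjusted p = 0.188) and at 0.33 with overlap in the next. Hnrnpa2b1 was at -0.21 with overlap (limma adjusted p = 0.335), while its second probe set was at 0.40 with KO above WT on all arrays. Hnrnpab was at 0.09 in its brightest probe set (limma adjusted p = 0.534), with KO just above WT on all arrays, and its 6 others ran from -0.31 to 0.55. Hnrnpf was at -0.17 with KO below WT on all arrays (limma adjusted p = 0.278), and its others ran from -0.05 to 0.33 with overlap. The probe sets of Hnrnpk did not differ in sign. Its brightest was at -0.08 and the others ran from -0.18 to -0.019, the one at -0.18 with KO below WT on all arrays. Hnrnph3, which had 1 probe set, was lowest at -0.37 ± 0.18 (SE, limma adjusted p = 0.253), with 8.31 to 8.82 in KO and 8.54 to 9.22 in WT.

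Over all members, 137 of 148 probe sets lay above the filter, and 35 genes had more than 1 of them. In 18 of these 35 genes the probe sets gave differences of both signs. Among the 137, KO lay above WT on all arrays in 26 and below in 7. These probe sets are not separate observations, since 1 gene can hold up to 7 of them. The same counts over all probe sets of the array are not given here, so they are not read as a trait of the members. Probe sets of a gene can read different transcript ends or isoforms, and which ones these read is not known here.

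**Figure D3:**
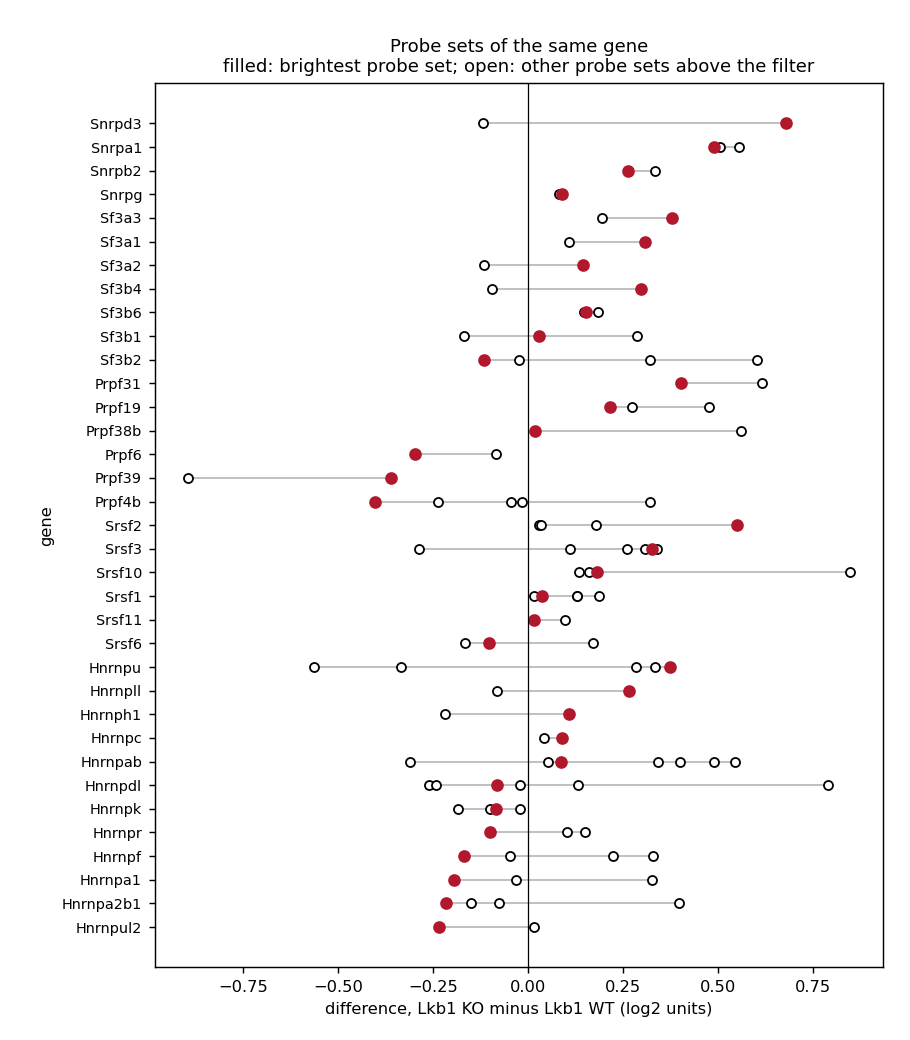
Difference between Lkb1 KO and Lkb1 WT (log2 units, x axis) for each probe set above the filter in the 35 genes with more than 1 (y axis). The 3 probe sets of Snrpa1 lie between 0.49 and 0.56, while those of Hnrnpu run from -0.56 to 0.38.

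By array, the median shift of the members from the WT mean was 0.16, 0.11, 0.07 and 0.09 log2 units in Lkb1 KO 4 to 7 and -0.05, -0.02 and 0.02 in Lkb1 WT 5 to 7. The SF3a genes were at 0.27 to 0.35 in KO and -0.02 to 0.08 in WT. The Srsf and Prpf medians also did not overlap between the groups. The Snrp, Lsm and Sf3b medians did, each with WT 7 inside the KO range, and the Hnrnp medians lay between -0.05 and 0.03 in both groups.

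**Figure D4:**
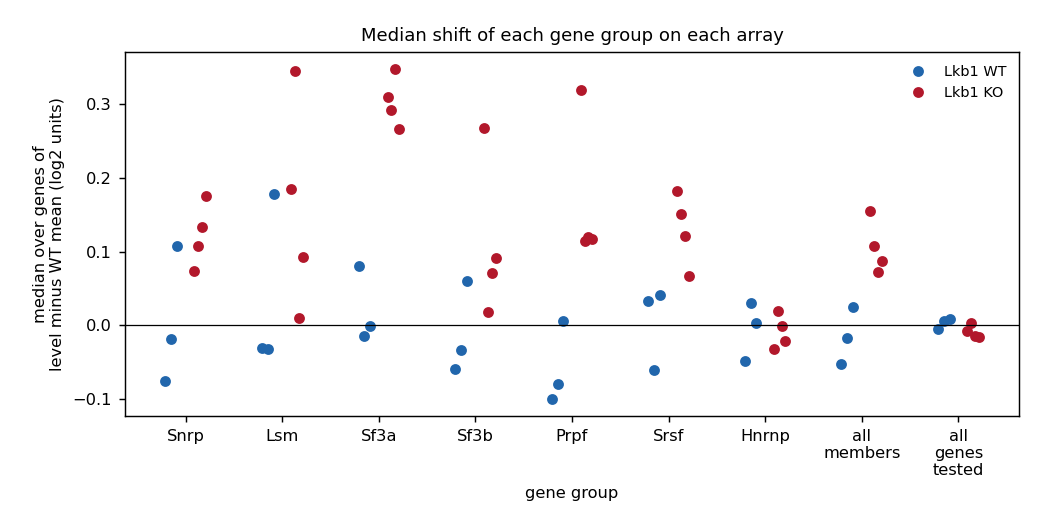
Median over the genes of a group of the level minus the WT mean (log2 units, y axis), with 1 point per array (blue Lkb1 WT, red Lkb1 KO), for the 7 subfamilies, all members and all tested genes. The members lie at 0.07 to 0.16 in KO, and all tested genes lie near 0 on each array.

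Of 136 other spliceosome and RNA-binding genes listed by role, 106 were tested. Over all tested genes 2.48% rose, 2.88% fell and the median difference was -0.02. Of the 106, 3 rose (2.83%), near that share, and 1 fell, with a median difference of 0.02. Those that rose were Phf5a, the SMN-associated gene Strap (0.48 ± 0.09 SE, limma adjusted p = 0.0258) and Mbnl3, a muscleblind family regulator (0.65 ± 0.13 SE, limma adjusted p = 0.0292). A second probe set of Strap was at -0.0089. Clk4, a kinase of SR proteins, fell (-0.53 ± 0.11 SE, limma adjusted p = 0.0361). Its log2 level averaged 6.57 ± 0.17 (SD) over the 4 KO arrays and 7.10 ± 0.0032 (SD) over the 3 WT arrays. Over the 106 genes, KO lay above WT on all arrays in 20 (18.9%) and below in 8, against 11.4% and 12.7% of all tested genes. The difference lay above 0 for 56.6% of the 106. At an unadjusted p under 0.05 (limma), 20 of the 106 were higher and 8 lower, against 11.8% and 13.6% of all tested genes. Leaving out Lkb1 KO 6 gave 1 of the 106 called higher, leaving out any other array gave 0, and none of these 7 fits called 1 lower.

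By list, 1 of 11 genes of branch point recognition rose (Phf5a), as did 1 of 10 of the SMN complex (Strap) and 1 of 27 other regulators (Mbnl3), and 1 of 13 SR kinases and SR-like factors fell (Clk4). Single calls in lists this short are not read as a result about a list. None of 17 other snRNP proteins, 22 factors of the PRP19 complex and the catalytic steps, or 6 exon junction genes passed. At an unadjusted p under 0.05 these 3 lists held 2, 5 and 1 genes higher and 1, 1 and 1 lower, where 11.8% and 13.6% of all tested genes were higher and lower. Their genes of lowest p were Cd2bp2 of the U5 particle (0.37, limma adjusted p = 0.0854), Plrg1 of the PRP19 complex (0.40, limma adjusted p = 0.0564) and Pnn (-0.28, limma adjusted p = 0.0779). SR kinases and SR-like factors had the lowest median of these lists, at -0.08.

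**Figure D5:**
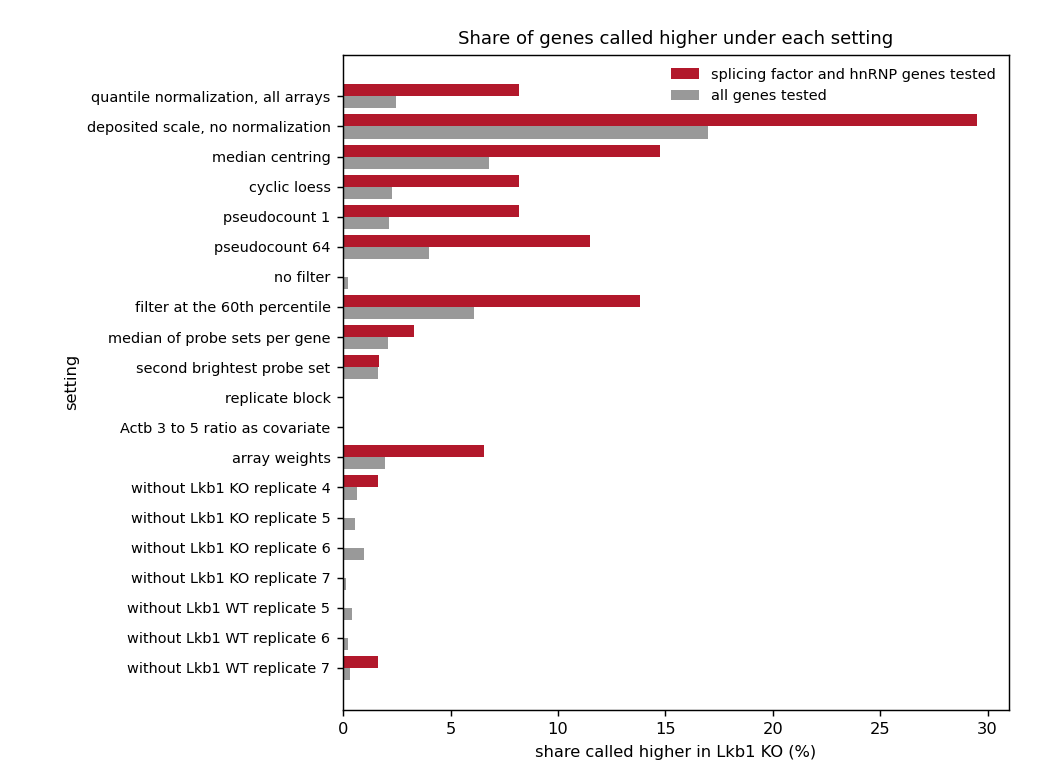
Share of tested genes called higher in Lkb1 KO (%, x axis) under each setting (y axis), for the splicing factor and hnRNP genes (red) and all tested genes (grey). The share of the members was 8.2% against 2.48% with quantile normalization and 29.5% against 17% in the scaling as deposited, and it was 0 in 5 of the 7 fits without 1 array.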

How the data were processed

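The authors deposited linear signal intensities, 1 for each probe set on each of 7 arrays, made with MAS5 per the submitters' processing notes, with version and scaling unknown here. The trimmed means of the deposited arrays ran from 228.6 to 425.9, so the arrays did not share 1 trimmed mean. Per the labels, each sample held 15000 to 20000 sorted cells, and about 10 ng of RNA was amplified. There were 22690 probe sets, including 64 controls. The labels name mouse 430 2.0 chips, whereas the deposited values hold 22690 probe sets and the annotation is that of the smaller 430A design. Genes on the larger chip alone could therefore not be analysed here. The platform annotation gave 20380 non-control probe sets 1 symbol, 691 several and 1555 none, and all 64 members matched the gene table of GRCm38.p6.

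The deposited intensities were quantile normalized over non-control probe sets and analysed as log2(signal + 16), which understates changes of dim genes. Genes above the 40th percentile of the probe set means (5.54 on the log2 scale) were tested with limma 3.58.1 in R 4.3.3 (genotype alone, 5 residual degrees of freedom). Background is the 95th percentile, 13.64 signal units, of 27 control probe sets for bacterial transcripts. Exact permutation tests are two-sided over 35 splits, with 0.0286 as the smallest possible p. The number of arrays limits the precision. The fit was tested on simulated data. Members and lists were chosen with earlier results of these data known. The genes named are, per subfamily, those past the threshold, the 3 of lowest p, the highest and lowest by difference and the brightest, and in each other list those past the threshold or the gene of lowest p, with Stk11 and Kit. Other named members, neighbours and markers were picked with their values in view.

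The alternatives tried were scaling, pseudocount, filter, choice of probe set, the replicate number, the Actb ratio, array weights and leaving out each array. The median of probe sets is the median level of a gene's probe sets on each array, dim ones included, and not the median of their differences.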

Additional observations from a re-analysis of the deposited data

Results flagged for a closer look

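In a group of 4 arrays, 1 array can stand apart from the other 3. The KO values of the 64 members, of 16 other genes named in the text and of the median shifts of the members and the 7 subfamilies were checked by Dixon's criterion, 88 sets in all, of which chance marks about 1 in 20. It marked 6. The median shift of the Prpf genes was 0.32 in Lkb1 KO 4 and 0.11 to 0.12 in the other KO arrays. Also in Lkb1 KO 4, Prpf39 was at 9.20 against 8.70 to 8.74, and Hnrnpl at 6.33 against 5.67 to 5.68. In Lkb1 KO 5, Srsf5 was at 10.95 against 10.76 to 10.77, and Kit at 10.49 against 10.40 to 10.41. Snrpn, not above background on any array, was at 4.44 in Lkb1 KO 6 against 4.14 to 4.19.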

How the results depend on the processing

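Calls depended on the number of arrays, the scaling and the probe set chosen, and the cause was not tested. Members called higher (5) and lower (0) were 18 and 0 in the scaling as deposited, 9 and 0 with median centring, 8 and 0 with the filter at the 60th percentile, 0 and 0 with no filter, 2 and 1 with the median of a gene's probe sets, and 1 and 1 with the second brightest. That 1 was Prpf3, which has a single probe set, so none of the other 4 genes stayed past the threshold there. With no filter limma gave 13 members an unadjusted p under 0.05 as higher and 1 as lower. All genes called higher and lower (200 and 233) were 1371 and 42 in the scaling as deposited, so that 97% of calls were higher against 46.2%, 548 and 165 with median centring (76.9%), 324 and 370 with a pseudocount of 64, 28 and 47 with no filter, 359 and 354 with the filter at the 60th percentile, 115 and 109 with the second brightest probe set, and 146 were lower with the median of probe sets. Other spliceosome genes called higher and lower (3 and 1) were 27 and 0 as deposited, 6 and 3 with the filter at the 60th percentile and 0 and 0 with no filter, and 16 and 6 were higher with median centring and a pseudocount of 64.

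The replicate numbers 5 to 7 are shared by both groups. Same-numbered arrays correlated in their deviations by 0.0282, 0.0941 and 0.0535. Among numbers 5 to 7, arrays of unlike number correlated by -0.0637 to -0.00638. Lkb1 KO 4 correlated by 0.0651, -0.0675 and -0.00256 with Lkb1 WT 5 to 7. The main fit left the numbers out, and whether they mark pairs or a shared batch was not settled. With the replicate block, in which Lkb1 KO 4 has no partner, 0 genes were called higher and 1 lower, 0 members and 0 other spliceosome genes in either direction, while 11 members had an unadjusted p under 0.05 as higher and 2 as lower. The differences of the 5 genes were 0.73 for Snrpd3, 0.57 for Srsf2, 0.49 for Snrpa1, 0.49 for Prpf3 and 0.38 for Hnrnpu (limma adjusted p from 0.108 to 0.149). The Sf3b median was then 0.078 and Lsm14b was at -0.032. With the Actb ratio as a covariate limma called 0 genes, members and other spliceosome genes in either direction, with 5 members at an unadjusted p under 0.05 as higher and 1 as lower and 715 genes in all.

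Medians moved with the scaling. As deposited they were 0.34 over all genes, 0.51 over members, 0.32 for Hnrnp, 0.53 for Lsm, 0.56 for Prpf, 0.71 for Sf3a, 0.59 for Sf3b, 0.49 for Snrp and 0.54 for Srsf, and with median centring 0.076, 0.24, 0.048, 0.26, 0.29, 0.45, 0.32, 0.22 and 0.27 in the same order. The members' median minus that of all genes was 0.12 in the main scaling and 0.16 in both of these. With cyclic loess the median was -0.024 over all genes and -0.035 for Hnrnp, and with the filter at the 60th percentile -0.034 for Hnrnp. With the median of probe sets it was 0.013 over all genes, 0.079 for Hnrnp and 0.21 for Sf3a, and with the second brightest 0.0175, 0.040 and 0.11. With the Actb ratio it was 0.068 over members, 0.064 for Prpf, 0.36 for Sf3a, -0.070 for Sf3b and 0.17 for Srsf.

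Without 1 array in turn, 9 to 77 genes were called higher and 35 to 115 lower, 0 to 1 members higher and 0 lower, and 0 to 1 other spliceosome genes higher and 0 lower. Medians ran from -0.018 to -0.012 over all genes, 0.088 to 0.14 over members, -0.062 to 0.039 for Hnrnp, 0.064 to 0.18 for Lsm, 0.11 to 0.20 for Prpf, 0.28 to 0.33 for Sf3a, 0.076 to 0.23 for Sf3b, 0.056 to 0.16 for Snrp and 0.057 to 0.14 for Srsf.

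Among the genes followed through all settings, these changed sign. As deposited, Hnrnph3 was at 0.041, Pnn at 0.15, Sf3b2 at 0.23 and Srsf6 at 0.29. With median centring Hnrnpab was at -0.022 and Srsf6 at 0.0185, and with cyclic loess Hnrnpab was at -0.052. With the median of probe sets Hnrnpu was at -0.56, Snrpd3 at -0.12, Sf3b2 at 0.16, Srsf6 at 0.17 and Strap at -0.0089. The values of Hnrnpu and Snrpd3 there are those of 1 probe set each, the one of middle level. The other probe sets of Hnrnpu were at 0.38, 0.33, -0.33 and 0.28. With the second brightest Snrpd3 was at -0.12, Hnrnpll at -0.082, Sf3a2 at -0.12, Srsf6 at 0.17 and Strap at -0.0089. With the Actb ratio Lsm14b was at -0.15, Sf3b5 at -0.10 and Sf3b6 at -0.041. Leaving out 1 array took Lsm14b to between -0.13 and 0.15 and Snrpb to between -0.016 and 0.14. Of all 61 members, 10 others changed sign in these fits, namely Hnrnph2, Hnrnpr, Hnrnpul1, Lsm4, Prpf38b, Sf3b1, Sf3b4, Srsf1, Srsf11 and Srsf5. Of the values of single genes under these alternatives, 551 kept their direction and side of the threshold, 94 lost the threshold, 28 gained it and 26 changed sign.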
